A study of Homo sapiens with 6 samples.

Results

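Intestinal identity in SW480 cells was described through 9 transcription factors of the crypt and of the intestinal lineages, SOX9, ASCL2, KLF5, CDX2, KLF4, HNF4A, GATA6, CDX1 and ATOH1. They were chosen by gene symbol, and each matched 1 of the 58735 genes in the table. SW480 is an established human cell line from a colorectal cancer. RNA was sequenced after transfection with an siRNA against ITGB4 (3 libraries) or with a negative control siRNA (3 libraries), and all 6 libraries carry the genotype label WT. The series calls the libraries of a group biological replicates without saying whether they came from separate cultures, so p-values measure only the spread between these libraries. The labels give no siRNA sequence and no time after transfection, and every value comes from this 1 cell line.

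In the gut, stem cells at the crypt base divide under Wnt signalling, and their daughters become absorptive or secretory cells as they move up the crypt. SOX9 and ASCL2 are factors of the crypt base and are targets of Wnt/β-catenin. KLF5 is known for dividing crypt cells, while KLF4 is known from mouse colon for differentiated cells, goblet cells among them. The homeobox factors CDX1 and CDX2 specify intestine. HNF4A, a nuclear receptor, and GATA6, a zinc finger factor, are known for enterocyte genes, and ATOH1 starts the secretory lineages.

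The members fell into a high and a low set. SOX9, ASCL2, KLF5 and CDX2 were measured at 18.9 to 68.4 FPKM in every library. FPKM divides a gene's fragments by its length and by library size, so levels are compared between genes here. The comparison rests on the gene length given, which need not match the transcripts made in these cells. KLF4 and HNF4A were at 1.56 to 3.55 FPKM. GATA6, CDX1 and ATOH1 were below the mean of 1 FPKM over the 6 libraries that was required for testing, so 6 of the 9 members were tested. The crypt base factors and CDX2 were thus present, and the secretory factor ATOH1 had no read.

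Promoter windows from RefSeq (GRCh38.p14, 250 bases before to 50 after a gene's start) were found for 6 of the 9 members, with none for SOX9, ASCL2 and CDX1. The windows of CDX2 and KLF5, from the high set, and of ATOH1, with no read, are shown to set measured genes beside an unmeasured one. CDX2 had 1153 to 1517 reads per library and KLF5 1781 to 2176, and ATOH1 had 0. The CDX2 window lies at chr13:27969266-27969565 on the minus strand, the KLF5 window at chr13:73058755-73059054 on the plus strand and the ATOH1 window at chr4:93828503-93828802 on the plus strand. Capitals mark the TCF/LEF core (CTTTG followed by AA, AT, TA or TT) and the CDX core (TTTAT), searched on both strands, and no 2 marked matches overlap.
CDX2: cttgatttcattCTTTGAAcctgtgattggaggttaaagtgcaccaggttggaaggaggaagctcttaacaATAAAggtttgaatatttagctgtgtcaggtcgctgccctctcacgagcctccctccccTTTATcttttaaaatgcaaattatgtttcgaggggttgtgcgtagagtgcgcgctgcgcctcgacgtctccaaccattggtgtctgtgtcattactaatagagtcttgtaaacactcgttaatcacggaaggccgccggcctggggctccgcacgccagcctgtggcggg
KLF5: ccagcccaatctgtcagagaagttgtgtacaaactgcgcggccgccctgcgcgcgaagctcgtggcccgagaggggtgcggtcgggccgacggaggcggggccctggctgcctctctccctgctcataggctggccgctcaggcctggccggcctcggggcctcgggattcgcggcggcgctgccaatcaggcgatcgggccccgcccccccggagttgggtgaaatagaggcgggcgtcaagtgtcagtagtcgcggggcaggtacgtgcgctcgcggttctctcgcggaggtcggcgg
ATOH1: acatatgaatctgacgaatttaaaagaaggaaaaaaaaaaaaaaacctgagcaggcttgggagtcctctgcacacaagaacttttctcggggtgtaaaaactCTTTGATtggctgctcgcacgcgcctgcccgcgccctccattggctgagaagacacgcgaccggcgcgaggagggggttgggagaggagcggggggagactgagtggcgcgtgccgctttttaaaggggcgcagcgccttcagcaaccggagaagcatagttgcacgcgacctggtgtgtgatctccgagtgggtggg
CDX2 has 1 TCF/LEF core and 2 CDX cores, ATOH1 has 1 TCF/LEF core, and this KLF5 window has neither. The windows of KLF4, HNF4A and GATA6, not shown, hold no TCF/LEF core. GATA6 has 1 CDX core, and KLF4 and HNF4A have none. Of all 35116 windows of this length, 13.8% hold a TCF/LEF core and 34.9% a CDX core. The dinucleotide CG occurs 16 times in the CDX2 window, 37 times in the KLF5 window and 22 times in the ATOH1 window, against a median of 14 over all windows. The ATOH1 window lay between the CDX2 and KLF5 windows in this count. KLF5 has a further window upstream, at the start of the gene model in the table, with 4 CG, 1 CDX core and no TCF/LEF core. The CDX2 window lies inside the table's longer CDX2 model. The table gives 1 value per gene, so start sites were not told apart.

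The 6 libraries held 13715266 to 15496274 reads, recovered from the FPKM and the gene lengths. ITGB4, the integrin β4 subunit targeted by the siRNA, was at 41.1, 38.1 and 37.9 FPKM with ITGB4 siRNA and at 74.3, 63.8 and 69.8 FPKM with control siRNA (log2 fold change -0.81, limma adjusted p = 0.0148). With any 1 of the ITGB4 siRNA libraries left out, 0 genes were called by limma, ITGB4 included (545 to 604 at an unadjusted p under 0.05). Without control siRNA replicate 3 the limma adjusted p of ITGB4 was 0.0996, and its log2 fold change was -0.80. Replicate 1 of both groups stood apart from the other libraries on the first principal component (27.8% of the variance), at -10.8 with ITGB4 siRNA and -17.3 with control siRNA, against 3.28 to 14.4 elsewhere. Fold changes of the tested members are therefore also given without both libraries numbered 1. The culture held epithelial RNA, with EPCAM, an epithelial surface protein, at 97.7 ± 2.59 FPKM with ITGB4 siRNA and 96.5 ± 3.06 FPKM with control siRNA (SD, n = 3 each). Summed fibroblast, endothelial and leukocyte markers were at most 3.40 FPKM per list in every library, and DCN and LUM (fibroblasts), CDH5 and KDR (endothelium) and MS4A1 (B cells) were listed at 0. These are bulk libraries, so fewer expressing cells and less RNA per cell cannot be told apart.

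SOX9, an HMG-box factor of crypt progenitors, was the highest member. It was measured at 61.0, 63.0 and 64.0 FPKM in the ITGB4 siRNA libraries and at 66.6, 68.4 and 68.0 FPKM in the control siRNA libraries. All 3 ITGB4 siRNA values lay below all 3 control values, and both groups were tight. SOX9 (ENSG00000125398, GRCh38 chromosome 17, 72121020 to 72126420, plus strand) ranked 21 by mean FPKM among 1553 genes that the table annotates as transcription factors, and 16 to 22 in single libraries.

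ASCL2, a basic helix-loop-helix factor of crypt stem cells, followed at rank 31. It was at 58.7, 46.7 and 47.8 FPKM with ITGB4 siRNA and at 54.3, 36.3 and 41.1 FPKM with control siRNA. Replicate 1 was the highest library of each group, and the groups overlapped. Its reads numbered 1321 to 1507 with ITGB4 siRNA and 997 to 1489 with control siRNA, so counting error is small beside this spread. Within groups its standard deviation on the log2 scale was 0.242, larger than in 97.3% of the 7295 genes with a mean of at least 5 FPKM, where the median was 0.0848. The same measure was 0.0286 for SOX9, with 3.85% of those genes below it. ASCL2 (ENSG00000183734) lies on chromosome 11, 2268495 to 2270952, minus strand.

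KLF5, a zinc finger factor of dividing crypt cells, was at 33.0, 36.6 and 35.1 FPKM with ITGB4 siRNA and at 35.4, 36.6 and 35.6 FPKM with control siRNA. These 6 values were close together, and KLF5 ranked 44. KLF4, its relative from differentiated cells, was at 2.70, 3.02 and 2.84 FPKM with ITGB4 siRNA and at 3.23, 2.99 and 3.55 FPKM with control siRNA, rank 557. KLF5 stood 10.03 to 12.4 times above KLF4 in every library. KLF5 (ENSG00000102554) lies on chromosome 13, 73054976 to 73077542, plus strand, and KLF4 (ENSG00000136826) on chromosome 9, 107484852 to 107490482, minus strand.

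CDX2, the homeobox factor that specifies intestine, was at 21.9, 19.9 and 19.3 FPKM with ITGB4 siRNA and at 24.9, 18.9 and 22.7 FPKM with control siRNA. As for ASCL2, replicate 1 was highest in each group and the groups overlapped. CDX2 (ENSG00000165556, chromosome 13, 27962137 to 27971139, minus strand) ranked 104. Its paralog CDX1 (ENSG00000113722, chromosome 5, 150166795 to 150184558, plus strand) had 0 reads in all 3 ITGB4 siRNA libraries and 2, 0 and 0 reads in the control siRNA libraries. In a gene of its length, 3 reads correspond to 0.110 to 0.123 FPKM, taken here as the floor for 1 library. The third paralog, CDX4, was listed at 0 in all 6 libraries.

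HNF4A, a nuclear receptor of gut and liver epithelium, was low and even, at 1.56, 1.59 and 1.65 FPKM with ITGB4 siRNA and at 1.59, 1.62 and 1.58 FPKM with control siRNA. The groups overlapped, and 158 to 188 reads per library stood behind these values. HNF4A (ENSG00000101076, chromosome 20, 44355700 to 44434596, plus strand) ranked 741. Its paralog HNF4G had 3 reads over the 6 libraries.

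GATA6, a zinc finger factor of gut endoderm, was at 0.183, 0.183 and 0.195 FPKM with ITGB4 siRNA and at 0.343, 0.120 and 0.150 FPKM with control siRNA. These values rest on 10, 11 and 12 reads with ITGB4 siRNA and on 20, 7 and 9 reads with control siRNA. The control library with 20 reads was replicate 1, and the groups overlapped. GATA6 (ENSG00000141448) lies on chromosome 18, 22169443 to 22202528, plus strand. Among the 6 GATA genes it was GATA2, best known from blood cells, that carried 96.9% of the summed FPKM, with 19.2 ± 0.298 FPKM with ITGB4 siRNA and 19.8 ± 2.62 FPKM with control siRNA (SD, n = 3 each). GATA4 and GATA5, known with GATA6 from endoderm, were listed at 0 in every library.

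ATOH1, the basic helix-loop-helix factor that starts secretory fate, had 0 reads in all 6 libraries. In a gene of its length, 3 reads correspond to 0.0871 to 0.0979 FPKM, the floor for this gene. ATOH1 (ENSG00000172238) lies on chromosome 4, 93828753 to 93830964, plus strand. NEUROG3 and NEUROD1, factors of the enteroendocrine lineage, were also listed at 0.

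The order of levels over the 6 libraries was SOX9, ASCL2, KLF5, CDX2, KLF4, HNF4A, GATA6, CDX1 and ATOH1. ASCL2 (36.3 to 58.7 FPKM) and KLF5 (33.0 to 36.6 FPKM) overlapped in range, as did CDX1 and ATOH1. No other neighbours in the order overlapped.

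**Figure D1:**
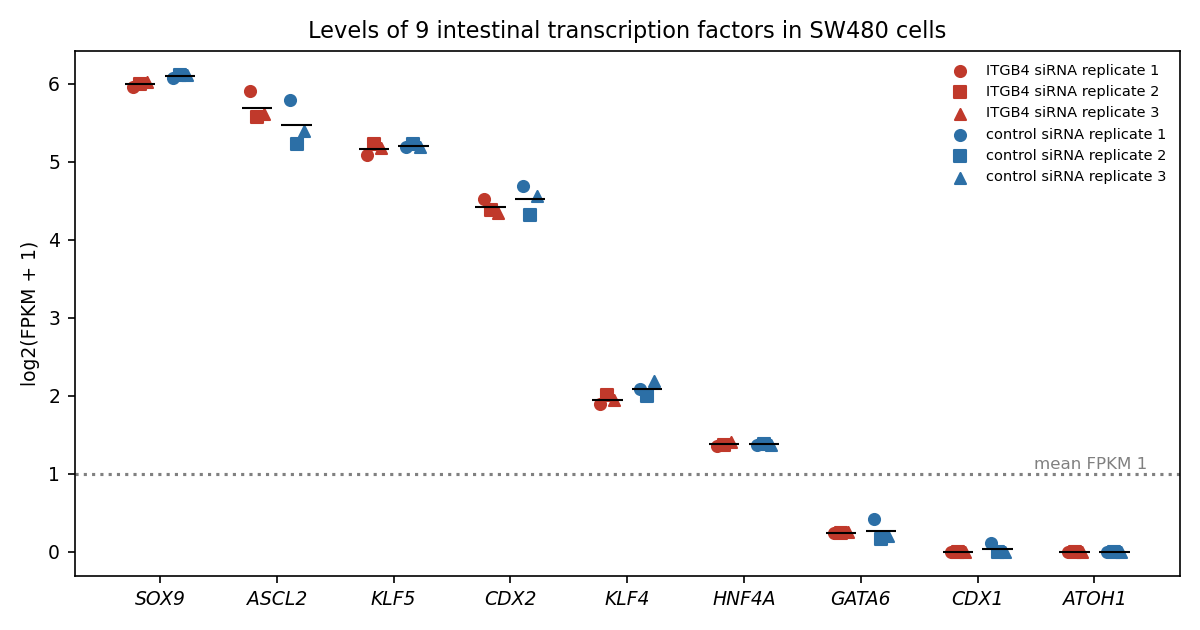
Level of each member in every library as log2(FPKM + 1), with ITGB4 siRNA libraries (red) left of control siRNA libraries (blue), marker shape for the replicate number and a black line for the mean of the plotted values. The dotted line marks an FPKM of 1; GATA6, CDX1 and ATOH1 lie below it, and SOX9 is the 1 member whose groups do not overlap.

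**Figure D2:**
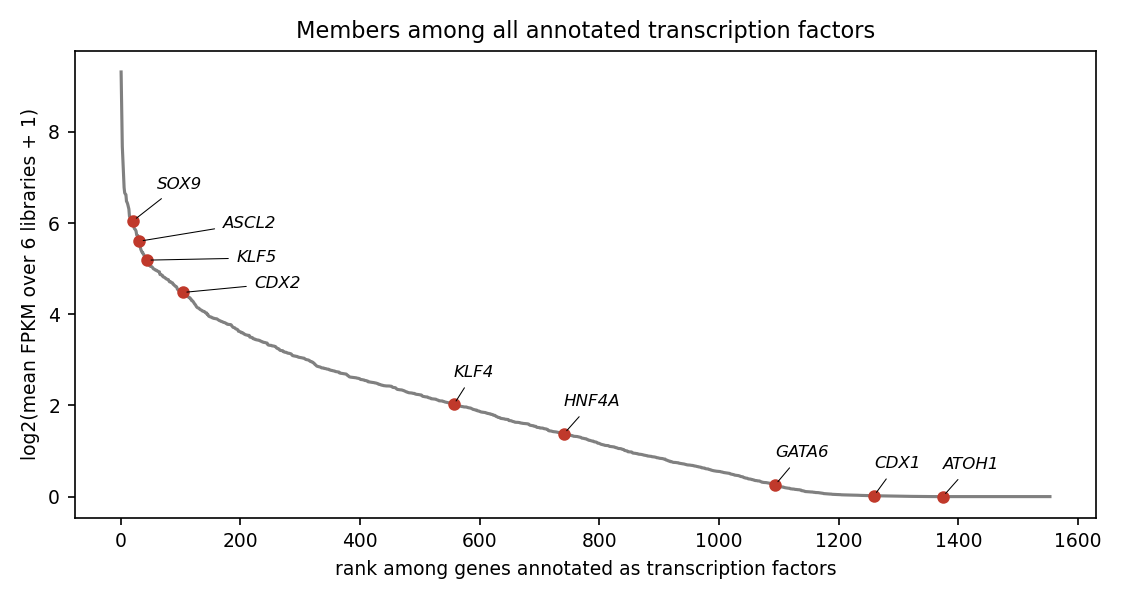
Mean FPKM over the 6 libraries, as log2(FPKM + 1), of the 1553 genes annotated as transcription factors in the table, in falling order of level, with the members in red. SOX9 (rank 21), ASCL2 (31), KLF5 (44) and CDX2 (104) lie on the steep left part, and ATOH1 lies among the genes at 0.

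Within their families the high members also stood out by level. SOX9 took 62.6% of the summed FPKM of 20 SOX genes, ahead of SOX12 at 15.9 ± 1.42 FPKM with ITGB4 siRNA and 15.6 ± 2.71 FPKM with control siRNA (SD, n = 3 each). ASCL2 took 98.1% of the 5 ASCL genes and CDX2 99.9% of the 3 CDX genes. KLF5 took 30.9% of 18 KLF genes, since KLF10 (14.5 FPKM on average) and KLF6 (12.7 FPKM) were also measured well above KLF4.

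The genes that these factors are known to go with were mostly below 1 FPKM outside the crypt base list. Of 18 crypt base and stem genes, 12 had a mean of at least 1 FPKM. AXIN2, a feedback inhibitor of Wnt signalling, led with a mean of 122.9 FPKM, followed by NKD1 at 25.6 FPKM, CDCA7 at 23.1, ZNRF3 at 19.4 and TNFRSF19 at 18.4 FPKM. LGR5, the R-spondin receptor that marks crypt stem cells, had 2 reads over the 6 libraries although ASCL2 was high, and the stem cell genes OLFM4 and SMOC2 were listed at 0.

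Absorptive genes were scarce although CDX2 was present. Of 18 colonocyte genes, 2 reached 1 FPKM, the sodium-proton exchanger SLC9A3 (mean 7.23 FPKM) and the sulfate transporter SLC26A2 (4.33 FPKM), and 8 were listed at 0, FABP1 and CA1 among them. Of 18 intestinal surface and brush border genes, EPS8L3 (7.16 FPKM) and USH1C (2.93 FPKM) reached 1 FPKM. VIL1, the brush border protein villin, was at 0.706 FPKM. CDH17 and LGALS4, known as CDX2 targets, had 8 and 9 reads over the 6 libraries.

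Among secretory genes, the enteroendocrine and Paneth lists were near 0, and the goblet and tuft lists held a few measured genes. The 15 enteroendocrine genes summed to 0.484 to 0.893 FPKM in the ITGB4 siRNA libraries and 0.643 to 0.771 FPKM in the control siRNA libraries, with none at a mean of 1 FPKM. The 9 Paneth genes summed to 0.0891 to 0.897 FPKM with ITGB4 siRNA and 0.360 to 0.881 FPKM with control siRNA. Of 16 goblet genes, KLK1 (5.27 FPKM), GFI1 (3.29 FPKM) and REP15 (1.79 FPKM) were tested, while the secreted mucin MUC2 had 7 reads over the 6 libraries and TFF3 was listed at 0. Of 10 tuft cell genes, DCLK1 (11.0 FPKM) and IL17RB (3.96 FPKM) were tested, while POU2F3, the factor that specifies tuft cells, had 6 reads over the 6 libraries.

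Of 21 other intestinal transcription factors, 8 were tested. ESRRA, a nuclear receptor of energy metabolism, averaged 29.5 FPKM and VDR, the vitamin D receptor, 27.2 FPKM. HES1, a Notch target that represses ATOH1, averaged 9.34 FPKM. PDX1, a homeobox factor of duodenum and pancreas, averaged 4.37 FPKM.

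**Figure D3:**
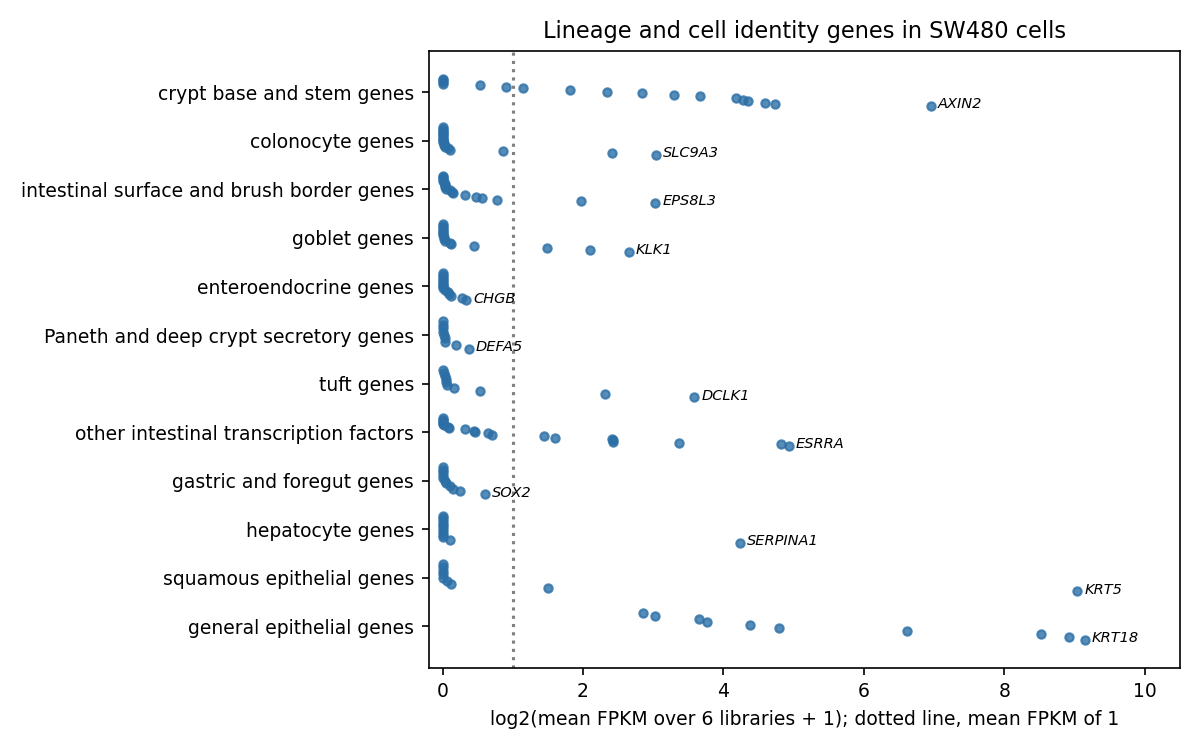
Mean FPKM over the 6 libraries, as log2(FPKM + 1), of the genes in 12 lists, 1 point per gene, with the highest gene of each list named and the dotted line at a mean of 1 FPKM. All 10 general epithelial genes and 12 of 18 crypt base genes lie at or right of the line, and no gene of the enteroendocrine, Paneth or gastric lists does.

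The comparison of the siRNA groups asks whether these factors differ when ITGB4 RNA is lowered in part. With ITGB4 siRNA the mean FPKM of ITGB4 changed by -43.7%, so a full loss of ITGB4 was not examined. Of the 6 members tested, limma called 0 changed, against 0.0466% of the 12871 genes tested. SOX9 was the 1 member with an unadjusted p under 0.05, which 5.83% of all tested genes had (2.92% lower with ITGB4 siRNA). Limma-voom on the recovered reads called 0 members, against 0.202% of all genes, with 0 members at an unadjusted p under 0.05. Of the 6 members, 4 had a log2 fold change below 0, against 51.5% of all genes tested, and their median was -0.07, against -0.003. SOX9 averaged 62.7 ± 1.53 FPKM with ITGB4 siRNA and 67.7 ± 0.977 FPKM with control siRNA (SD, n = 3 each). Its log2 fold change on the log2(FPKM + 1) scale was -0.11 (SE 0.039, 95% interval -0.20 to -0.02, limma adjusted p = 0.806). SOX9 was also the 1 member whose groups did not overlap, which held for 11.1% of all genes tested and, with lower values in the ITGB4 siRNA libraries, for 5.36%.

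The other tested members had overlapping groups. ASCL2 averaged 51.1 ± 6.66 FPKM with ITGB4 siRNA and 43.9 ± 9.33 FPKM with control siRNA (SD, n = 3 each), a log2 fold change of 0.23 with a 95% interval from -0.14 to 0.59 (limma adjusted p = 0.998). Without control siRNA replicate 1 its log2 fold change was 0.39, and without control siRNA replicate 2 it was 0.10, so its size rests on single libraries. Without both libraries numbered 1 it was 0.28 (limma unadjusted p = 0.0091, adjusted p = 0.475). In that fit 1050 of 12871 genes had an unadjusted p under 0.05. With all 6 libraries the limma unadjusted p of ASCL2 was 0.188, and with 1 library left out it ran from 0.0134 to 0.512. CDX2 averaged 20.4 ± 1.37 FPKM with ITGB4 siRNA and 22.1 ± 3.03 FPKM with control siRNA (SD, n = 3 each). Its log2 fold change was -0.11 with an interval from -0.35 to 0.14 (limma adjusted p = 0.998). It was -0.02 without control siRNA replicate 1, -0.21 without control siRNA replicate 2 and -0.07 without both libraries numbered 1.

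KLF4 averaged 2.86 ± 0.161 FPKM with ITGB4 siRNA and 3.26 ± 0.282 FPKM with control siRNA (SD, n = 3 each), and its interval ran from -0.32 to 0.04 around -0.14 on the log2 scale (limma adjusted p = 0.945). KLF5 had a log2 fold change of -0.04, with an interval from -0.16 to 0.08. HNF4A was at 0.00, with an interval from -0.18 to 0.19. Without both libraries numbered 1 the log2 fold change was -0.10 for SOX9 (limma unadjusted p = 0.0384, adjusted p = 0.577), -0.12 for KLF4, -0.01 for KLF5 and 0.01 for HNF4A. KLF5 was also at -0.001 without ITGB4 siRNA replicate 1. The intervals therefore exclude changes of 2-fold in either direction on this scale for all 6 tested members, and that of ASCL2 is the widest. Exact permutation of the library labels (two-sided, on mean FPKM) gave p = 0.1 for SOX9, the smallest possible with 3 libraries in each group, and 0.2 to 0.8 for the other 5.

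**Figure D4:**
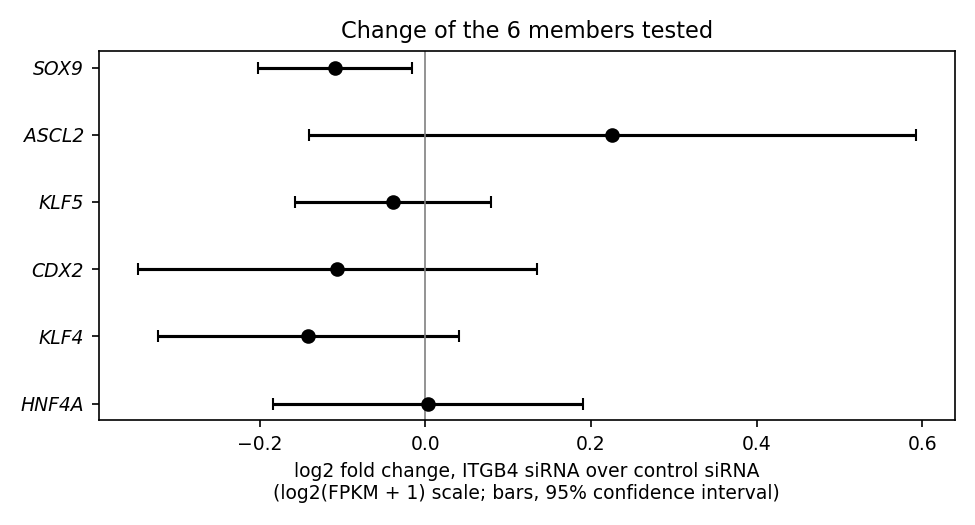
Log2 fold change of the 6 tested members, ITGB4 siRNA over control siRNA, with 95% confidence intervals from limma. The interval of SOX9 (-0.20 to -0.02) lies below 0 before adjustment over all genes, and the other 5 intervals include 0.

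Ratios between members take out what a library does to both genes alike, and they were computed for all 15 pairs of the 6 tested members. Groups did not overlap in 3 of the 15 ratios, against 13.6% of the 356590 ratios between tested transcription factors. The ratio of ASCL2 to CDX2 was 2.68, 2.35 and 2.47 in the ITGB4 siRNA libraries and 2.18, 1.92 and 1.81 in the control siRNA libraries. Every ITGB4 siRNA library lay above every control library, although neither gene alone separated the groups. The difference was 0.34 on the log2 scale, and 0.37 without both libraries numbered 1. The exact two-sided permutation p was 0.1, again the smallest possible, and 0.5 after Benjamini-Hochberg adjustment over the 15 ratios. The ratio was singled out after its values were seen.

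The other 2 separated ratios both involve SOX9. SOX9 to HNF4A was 39.1, 39.5 and 38.8 with ITGB4 siRNA and 41.9, 42.4 and 43.1 with control siRNA. SOX9 to KLF5 was 1.85, 1.72 and 1.82 with ITGB4 siRNA and 1.88, 1.87 and 1.91 with control siRNA. Both were lower with ITGB4 siRNA, by 0.12 and 0.07 on the log2 scale, with the same exact permutation p = 0.1 and adjusted value of 0.5.

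**Figure D5:**
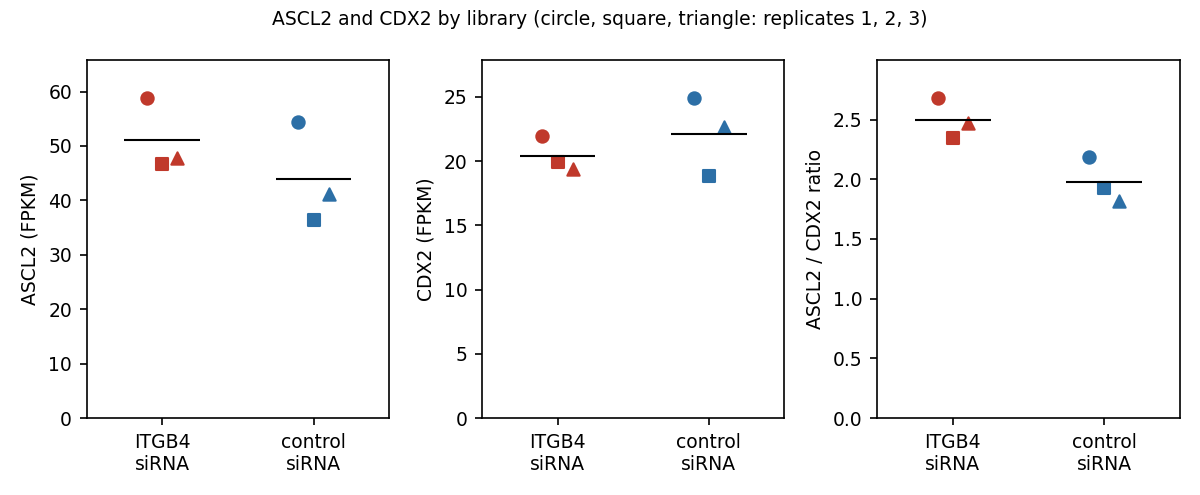
FPKM of ASCL2, FPKM of CDX2 and their ratio in each library, ITGB4 siRNA (red) left of control siRNA (blue), with a black line at the mean of 3 libraries. Replicate 1 (circles) is highest in both genes and both groups, and the ratio is 2.35 to 2.68 with ITGB4 siRNA and 1.81 to 2.18 with control siRNA.

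The lineage lists gave no called gene in any list. Of the 12 tested crypt base genes, limma and limma-voom each called 0, and 1 gene had a limma unadjusted p under 0.05, against 5.83% of all genes tested. Fold changes were below 0 in 8 of the 12, against 51.5% of all genes, with a median log2 fold change of -0.06, against -0.003. Groups did not overlap in 3 of the 12, AXIN2, ZNRF3 and RGMB, against 11.1% of all genes, and all 3 were lower with ITGB4 siRNA. The gene with an unadjusted p under 0.05 was ZNRF3, a ubiquitin ligase that removes Wnt receptors, at 18.6 ± 0.484 FPKM with ITGB4 siRNA and 20.1 ± 0.278 FPKM with control siRNA (SD, n = 3 each). Its log2 fold change was -0.10 (limma unadjusted p = 0.0493, adjusted p = 0.852). The limma unadjusted p of ZNRF3 ran from 0.0189 without the low-value filter to 0.155 without control siRNA replicate 3. With limma-voom it was 0.0883. Of the 8 tested intestinal factors outside the members, limma called 0 as well, and HES1 was the 1 gene at an unadjusted p under 0.05 and the 1 gene whose groups did not overlap. It was at 8.37, 8.38 and 8.78 FPKM with ITGB4 siRNA and at 11.6, 9.23 and 9.67 FPKM with control siRNA. Its log2 fold change was -0.23 (limma adjusted p = 0.812), with -0.14 when control siRNA replicate 1, its highest library, was left out and -0.13 without both libraries numbered 1. Of the 2 tested colonocyte genes, SLC9A3 had groups that did not overlap, and it was higher with ITGB4 siRNA. It was at 7.83, 7.77 and 7.58 FPKM with ITGB4 siRNA and at 7.45, 5.65 and 7.08 FPKM with control siRNA (limma adjusted p = 0.938). Of all 845 transcription factors tested, limma called 0 (0%), and 52 (6.15%) had an unadjusted p under 0.05.

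The genes closest to a member in their pattern over the 6 libraries were found among 6816 protein-coding genes with a mean of at least 5 FPKM, as a description. For ASCL2 they were MTA1 (Pearson r = 0.998), a chromatin remodelling subunit, and PRR5L (0.997). For CDX2 they were SBNO2 and CNP (both 0.992), and for SOX9 B4GALT5 (0.993) and HNRNPH3 (0.990). For KLF5 they were WDCP (0.992) and POLR3F (0.988), for KLF4 KLHL42 (0.980) and SNX7 (0.972), and for HNF4A ATP5PF (0.975) and RPS13 (0.973). Genes with r above 0.95 numbered 129 for CDX2, 88 for ASCL2, 38 for SOX9, 13 for KLF5, 5 for KLF4 and 4 for HNF4A. The named genes have the highest r of 6816 over only 6 libraries, so high values arise by selection. No chance level was computed for these counts.

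Annotated genes that overlap a member or lie within 5 kb of it carried almost no reads. SOX9-AS1, on the strand opposite SOX9, had 82 reads over the 6 libraries (mean 0.0850 FPKM). GATA6-AS1 had 4 reads and HNF4A-AS1 had 1. The labels do not say whether counting used strand, so reads of antisense partners cannot be told apart. The SOX9-AS1 reads stand beside the 3326 to 4080 reads of SOX9 per library.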

How the data were processed

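RNA-seq values for 6 SW480 libraries came as 1 table. Its FPKM were computed by the authors on GRCh38 per gene length and a scaled library size. DESeq2 and edgeR are named with no role in the processing notes of the submitters. The aligner and counter are not given in the sources used here. The deposited table also holds, as another unit, the gene length in bases. The authors' group means equal the means of the 3 libraries within 6.7e-07 FPKM and were not used further. Median-of-ratios factors computed from the deposited FPKM were 1.00315496 in every library. Factors this equal show that the deposited values were already scaled in this way, and not by the read total alone. Rescaling by these factors changes nothing and was no separate check.

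FPKM times gene length, divided by the value of 1 read, gave whole reads (tolerance 0.01) in 100% of values. The 12871 genes whose mean FPKM was 1 or more were fitted as log2(FPKM + 1) with limma 3.58.1 (trend, R 4.3.3), siRNA as the 1 coefficient, two-sided, Benjamini-Hochberg adjusted over all genes tested, and called at an adjusted p under 0.05. The fit was tested on simulated data. GATA6 was fitted without the filter and given no call. Python 3.11.15, scipy 1.17.1 and matplotlib 3.10.9 did the rest.

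The members, the gene lists and the rule for named genes (all members, ITGB4, up to 5 genes of highest mean FPKM and 2 of smallest p per list, genes at 0, neighbours, and the 2 most similar genes) were chosen with earlier results of these data known, and counts of called genes include ITGB4. Some genes that this rule names are not reported here. Read limits cover counting error only. Limma-voom and the fit without both libraries numbered 1 were chosen after seeing the data.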

Additional observations from a re-analysis of the deposited data

How the results depend on the processing

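No alternative called a member changed. Over all genes the count of called genes, 6, was 0 without the low-value filter (31956 tested, 1356 at an unadjusted p under 0.05). More genes were tested there, and the limma unadjusted p of ITGB4 was 1.94e-05, against 6.02e-06 in the main fit. Its log2 fold change was -0.81 in both, since a filter on genes leaves it as it is. The count was 0 with the replicate block (1064 at an unadjusted p under 0.05) and 0 without both libraries numbered 1 (1050). The main fit had 750 genes at an unadjusted p under 0.05. With limma-voom 26 genes were called. The causes of these differences were not tested. Leaving out 1 library gave 0 to 7 called genes, with 3 when control siRNA replicate 3 was left out and 0 when ITGB4 siRNA replicate 1, 2 or 3 was, and 0 called members each time. Under the block ASCL2 had the same log2 fold change of 0.23, which a block cannot change in this design. Its limma unadjusted p was 0.011 and its adjusted p 0.462, against 0.188 and 0.998 in the main fit. The block is given as a check only, since deviations of same-numbered libraries correlated across genes at 0.173, 0.102 and -0.010 and the labels do not pair them. When leaving out 1 library, the log2 fold change ran from -0.12 to -0.09 for SOX9, 0.10 to 0.39 for ASCL2, -0.07 to -0.001 for KLF5, -0.21 to -0.02 for CDX2 and -0.19 to -0.09 for KLF4. HNF4A turned sign without ITGB4 siRNA replicate 3 (-0.0101) and without control siRNA replicate 3 (-0.0006), in a range of -0.0101 to 0.0152. GATA6, at -0.02 in the unfiltered fit, was at 0.065 without control siRNA replicate 1 (range -0.066 to 0.065), 0.067 without both libraries numbered 1 and 0.032 with limma-voom, and its 7 to 20 reads per library limit any direction. Apart from these 5 sign changes, 97 values of single members across the alternatives kept direction and side of the threshold. Many of them could not change direction, since the low-value filters, robust moderation and the block leave the log2 fold change as it is. Rescaling by median-of-ratios factors barely moves it. Fits with edgeR and DESeq2, planned as alternatives, were not run. The table used here holds FPKM, and limma-voom was the 1 fit made on recovered reads.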

Other observations

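Some genes of other epithelia were abundant beside the intestinal factors. KRT5, a keratin of basal squamous epithelium, was at 551, 521 and 523 FPKM with ITGB4 siRNA and at 554, 489 and 514 FPKM with control siRNA, close to KRT18 (571 ± 9.14 FPKM with ITGB4 siRNA and 564 ± 17.7 FPKM with control siRNA, SD, n = 3 each). Its usual partner KRT14 was listed at 0 in every library, and TP63, the master factor of squamous epithelium, had 1 read over the 6 libraries. KRT13 averaged 1.83 FPKM, and the other genes of this list were below 1 FPKM.

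SERPINA1, a protease inhibitor secreted by hepatocytes and other epithelia, was at 17.4 ± 0.651 FPKM with ITGB4 siRNA and 18.2 ± 0.35 FPKM with control siRNA (SD, n = 3 each). The other 10 hepatocyte genes were each below 1 FPKM on average, with 5 listed at 0, so SERPINA1 made up 99.5% of the list's summed FPKM. No gastric or foregut gene reached a mean of 1 FPKM. SOX2, a foregut factor, was the highest of them at 0.622 ± 0.212 FPKM with ITGB4 siRNA and 0.426 ± 0.145 FPKM with control siRNA (SD, n = 3 each), with overlapping groups.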
